A study of Mus musculus with 2 samples.

Results

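Class II-high macrophages are the cells of 2 mouse tumour libraries that carried complement C1q transcripts, had no Krt20 or Cd3 transcripts, and gave an above-median share of their RNA to MHC class II genes. They numbered 652 of 1303 macrophages, of 16175 cells kept and of 16465 barcodes in all. Cells were kept if they had 300 genes or more and no more than 20% of their UMIs (unique molecular identifiers, each marking 1 captured transcript) were mitochondrial, and a kept cell was a macrophage if C1qa, C1qb and C1qc held at least 0.1% of its UMIs and Krt20, Cd3d, Cd3e and Cd3g had none. Members were chosen by the measured share of H2-Aa, H2-Ab1 and H2-Eb1 together, which had to reach 0.0699% of UMIs, the pooled median, and the macrophages under it are called class II-low.

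The study took subcutaneous tumours from mice on a serine/glycine-free diet and from mice on a control diet, and made 1 single-cell gene expression library per diet with the 10x Genomics immune profiling assay. The labels name neither the mouse strain nor the tumour line, and give no age, dose duration or number of animals, so it is unknown whether a library pools several mice. In all, 157234945 UMIs in 7999 barcodes belonged to the serine/glycine-free library and 161332426 UMIs in 8466 barcodes to the control library. With 1 library per diet there is no replicate check and no test between diets. Intervals given with values are exact 95% intervals (Clopper-Pearson for shares, Poisson for levels, conditional binomial for ratios) and cover counting error only.

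MHC class II molecules are surface proteins that display peptides from engulfed material to CD4 T cells. Their alpha and beta chains are made with an invariant chain, Cd74, which fills the groove until lysosomal proteases remove it and H2-DM exchanges the last fragment for a peptide. Transcription of these genes is switched on by the coactivator Ciita, which interferon-gamma induces in macrophages and which acts through factors bound to short promoter elements called the X and Y boxes. In tumours, macrophages that arrived recently from blood monocytes often carry class II, while Mrc1, Folr2 and Cbr2 mark resident or scavenging macrophages.

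The rule set the class II level of the members, so the following values are a description. H2-Aa, the alpha chain of I-A, was at 4376 CPM (counts scaled to a common total, without correction for gene length) in serine/glycine-free members and 2689 CPM in control members, against 64.4 and 36.0 CPM in the class II-low macrophages of the same libraries. H2-Ab1, its beta chain, was at 3796 and 2374 CPM in members, and H2-Eb1, the beta chain of I-E, at 3531 and 1983 CPM. The cells nearest the threshold held 0.0699%, 0.0706% and 0.0707% class II just inside it, on 17, 13 and 6 class II UMIs, and 0.0697%, 0.0695% and 0.0695% just outside. A cell near the threshold was therefore placed by few transcripts.

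Promoter sequences were available for some of the class II genes, but not for Cd74 or H2-Ab1. The 4 promoters below, from 250 bases before to 50 after the start site, belong to an I-A chain and an I-E chain of the rule and to both H2-DM beta chains, which the rule did not use. They were taken from RefSeq on build GRCm38.p6 at chr17:34287774-34288073 (minus strand), chr17:34305617-34305916, chr17:34152941-34153240 and chr17:34144999-34145298 (plus strand). Capitals mark the Y box letters TGATTGG and the letters GATGATG from the core of the X box, both searched on both strands and chosen with these promoters in view.
H2-Aa: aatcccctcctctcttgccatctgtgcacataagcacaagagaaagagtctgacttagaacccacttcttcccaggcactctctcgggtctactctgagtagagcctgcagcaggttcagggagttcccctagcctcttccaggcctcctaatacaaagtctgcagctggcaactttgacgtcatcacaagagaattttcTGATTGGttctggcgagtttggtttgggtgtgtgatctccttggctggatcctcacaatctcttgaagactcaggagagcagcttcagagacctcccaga
H2-Eb1: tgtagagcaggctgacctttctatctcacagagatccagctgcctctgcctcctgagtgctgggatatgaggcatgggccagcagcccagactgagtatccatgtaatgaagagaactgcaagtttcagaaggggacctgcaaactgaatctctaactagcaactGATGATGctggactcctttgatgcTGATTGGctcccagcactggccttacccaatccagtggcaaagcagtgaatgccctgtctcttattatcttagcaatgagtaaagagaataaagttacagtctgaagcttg
H2-DMb1: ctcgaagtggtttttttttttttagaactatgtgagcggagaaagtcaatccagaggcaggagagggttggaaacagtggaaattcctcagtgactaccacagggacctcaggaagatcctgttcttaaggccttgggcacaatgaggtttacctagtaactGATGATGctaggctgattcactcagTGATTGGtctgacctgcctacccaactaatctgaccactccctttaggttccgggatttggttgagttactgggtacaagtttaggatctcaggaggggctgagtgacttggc
H2-DMb2: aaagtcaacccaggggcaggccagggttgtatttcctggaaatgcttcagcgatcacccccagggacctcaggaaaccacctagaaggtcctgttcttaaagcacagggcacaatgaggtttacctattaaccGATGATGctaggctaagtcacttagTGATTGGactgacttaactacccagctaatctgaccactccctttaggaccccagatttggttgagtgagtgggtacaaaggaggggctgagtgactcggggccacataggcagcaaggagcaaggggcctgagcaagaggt
The Y box stood 50 bases before the start site in H2-Aa, 61 in H2-Eb1, 63 in H2-DMb1 and 92 in H2-DMb2. The X box core lay 17 bases before it in H2-Eb1 and 18 bases before it in both H2-DM beta genes. The H2-Aa promoter held no match to the X box letters. Of 8 class II genes with a promoter in the table, 7 held the Y box letters; neither of the 2 promoter windows of H2-DMa held them. Among all 32851 promoters in the table, 7.82% held the Y box letters, 3.48% the X box core and 78 promoters (0.237%) both, 3 of them class II genes. H2-Oa and H2-Ob, which encode the inhibitor of H2-DM, and H2-Eb2 also held the Y box letters, yet in the members H2-Oa had 6 and 4 UMIs, H2-Ob 10 and 5, and H2-Eb2 0 and 0 in the serine/glycine-free and control libraries. The C1qb and C1qc promoters held neither element.

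The label was checked against macrophage markers that the rule did not use. All 12 markers of the macrophage list were detected, with a summed level of 24221 CPM in serine/glycine-free members and 22857 CPM in control members. After thinning each cell to 1000 UMIs, which left out 13 and 8 members, Csf1r, the receptor for the growth factor of the lineage, was seen in 31.4% and 30.8% of members. Cd68, a lysosomal protein of macrophages, was seen in 64.1% and 62.5%. Krt20-positive cells without Ptprc or C1q transcripts, which should hold little macrophage RNA, served as a reference. Their median depths were 23118 and 25087 UMIs against 10308 and 8250 in members. Csf1r was seen in 0.480% and 0.579% of these cells unthinned, and Cd68 in 12.7% and 12.1%. Thinned to 1000 UMIs, they held Cd68 in 0.960% and 0.553% of cells. Flt3, the dendritic cell growth factor receptor, was seen in 0.688% and 0.926% of unthinned members and Zbtb46, a dendritic transcription factor, in 0.688% and 0.463%, no more often than in the Krt20-positive cells, where Flt3 reached 1.89% and 1.79%.

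Of the lists of other cell types, the monocyte list was the highest in the members. It summed to 1798 CPM over 399 of 436 serine/glycine-free members and 1514 CPM over 195 of 216 control members, and to 907 and 668 CPM in class II-low cells. Much of this sum was Ly6a, an interferon-induced gene, at 1173 and 623 CPM with UMIs in 331 and 130 members. Ly6c2 was at 93.5 and 234 CPM with UMIs in 72 and 48 members, and Ccr2 at 78.8 and 180 CPM. The dendritic list summed to 52.3 and 68.4 CPM, with Ccr7 at 0 in both libraries, and the neutrophil list to 39.2 and 50.9 CPM, with Cxcr2, Retnlg and Ly6g at 0 in both. The T and NK list stood at 15.9 CPM in 13 serine/glycine-free members and 4.24 CPM in 8 control members, with Cd3 genes at 0 by the rule. The fibroblast list summed to 175 CPM over 46 serine/glycine-free members and 353 CPM over 22 control members. The tumour or epithelial list reached 3.02 and 5.30 CPM. No member carried a T cell receptor contig. The doublet caller, Scrublet, marked 0 and 1 cells of the libraries and so did not work; 7 of 436 and 4 of 216 members had a score over 0.25. The libraries shared 104 barcodes, and no barcode was a member in both.

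Class II-high cells made up most macrophages on the serine/glycine-free diet and a minority on the control diet. Of 619 serine/glycine-free macrophages, 436 were members (70.4%, 66.7 to 74.0), against 216 of 684 control macrophages (31.6%, 28.1 to 35.2), a ratio of 2.23 (1.89 to 2.64). Because the threshold was the pooled median, the members are close to 1 in every 2 macrophages by construction, and only their split between the libraries is a measurement. Members formed 5.51% of all cells kept on the serine/glycine-free diet and 2.61% on the control diet (ratio 2.11, 1.79 to 2.49). Class II-low macrophages formed 2.31% and 5.66% (ratio 0.408, 0.342 to 0.485), and macrophages of both kinds 7.82% and 8.28% (ratio 0.945, 0.846 to 1.05). The macrophage share thus differed little between the libraries while its make-up by class II differed, and shares of cells do not give numbers of cells per tumour.

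**Figure D1:**
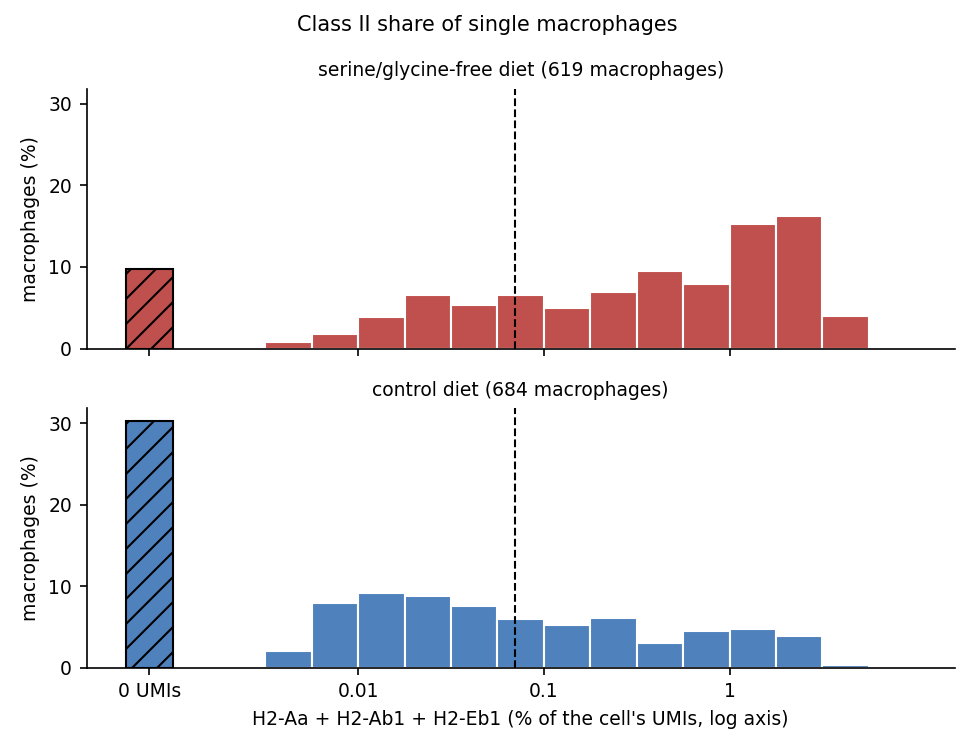
Share of macrophages (vertical axis, percent) by the share of H2-Aa, H2-Ab1 and H2-Eb1 in a cell's UMIs (horizontal axis, percent, log scale), in the serine/glycine-free library above and the control library below; the hatched bar holds cells with no class II UMI and the dashed line is the pooled median of 0.0699%. Cells without a class II UMI form 9.69% of the upper and 30.3% of the lower distribution, and cells at 1% or more form 35.9% and 9.06%.

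The split did not rest on cells near the threshold. Class II genes held at least 1% of UMIs in 222 serine/glycine-free macrophages (35.9%, 32.1 to 39.8) and 62 control macrophages (9.06%, 7.02 to 11.5). At 2% the shares were 16.6% and 3.36%, and at 3% they were 5.01% and 0.877%. Among members alone the median class II share was 1.06% in the serine/glycine-free library and 0.373% in the control library. In the plot of class II share by diet, the serine/glycine-free distribution is higher at the right-hand end and the control distribution at the left-hand end, and neither has a gap at the threshold.

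Members were next compared with class II-low macrophages inside each library, a contrast the rule used through its class II genes. Of 2792 measured genes, 46 (1.65%) were at least 1.5-fold higher and 19 (0.681%) at least 1.5-fold lower in class II-high cells of each library on its own. A measured gene had a mean of at least 50 CPM over the sums of both kinds of macrophage in both libraries. It also had at least 30 UMIs in 1 of those sums, and the fold is that of CPM + 5. The median gene was at a log2 ratio of -0.07 in the serine/glycine-free library and -0.05 in the control library.

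The machinery of class II loading followed the class II chains. Cd74 stood at 12858 CPM in class II-high and 649 CPM in class II-low cells of the serine/glycine-free library, 19.8 times as high (18.8 to 20.9), and at 8032 and 480 CPM in the control library, 16.7 times as high. H2-DMb1 was at 355 and 15.6 CPM in the serine/glycine-free library and 268 and 10.9 CPM in the control library. H2-DMb2, the other beta chain, was 15.4 times (11.8 to 20.5) and 10.3 times (8.67 to 12.4) as high. H2-DMa, their shared alpha partner, differed less, at 615 and 253 CPM (ratio 2.44, 2.23 to 2.67) and at 593 and 294 CPM (2.02, 1.87 to 2.18). Ciita was rare, with 93 UMIs in serine/glycine-free members and 28 in control members, and was 22.4 times (6.03 to 188) and 26.0 times (8.02 to 133) its level in class II-low cells. Of the 7 measured genes of this list beyond the rule, 4 were past 1.5-fold upwards, and Lgmn, a lysosomal protease, was lower in both libraries at log2 ratios of -0.19 and -0.46. Class I genes moved little by comparison: all 16 measured members of that list lay above 0 in both libraries and none reached 1.5-fold in both, with medians of 0.35 and 0.22.

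Monocyte genes were higher in class II-high cells, and inflammatory mediators were divided. All 5 measured monocyte genes were above 0 in both libraries and 3 were past 1.5-fold in both (Ccr2, Ly6a and Ly6c2), with medians of 1.13 and 1.02. Of 8 measured inflammatory cytokine genes, 2 were past 1.5-fold upwards in both (Il18bp and Il1b), with medians of 0.32 and 0.25. Of 22 chemokine genes, 4 were past it upwards (Ccl5, Ccr2, Ccrl2 and Cxcl9) and 2 downwards (Ccl2 and Ccl12), with medians of 0.22 and 0.28. Ly6c2, the surface marker of inflammatory monocytes, was at 93.5 CPM in class II-high and 2.68 CPM in class II-low cells of the serine/glycine-free library, and at 234 and 15.4 CPM in the control library. Ccr2, the receptor that brings monocytes out of the marrow, was 2.45 times as high (1.90 to 3.20) and 2.48 times as high (2.14 to 2.88). Il1b, an inflammatory cytokine, was at 453 and 97.0 CPM and at 545 and 186 CPM. Ccl5, which draws T and NK cells, was at 620 and 56.8 CPM in the serine/glycine-free library and 181 and 29.6 CPM in the control library. The T and NK list stood beside it at 15.9 and 0.894 CPM in the serine/glycine-free library and at 4.24 and 2.86 CPM in the control library, and its part in the Ccl5 values was not tested. C3, the central complement protein, was 7.53 times (5.27 to 11.1) and 6.07 times (4.61 to 8.05) as high, and no other of the 9 measured complement genes was past 1.5-fold in both libraries.

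Interferon-gamma targets were mostly higher in class II-high cells. Of 22 measured genes of that list, 20 were above 0 in both libraries, none was below 0 in both, and 5 were past 1.5-fold in both (Cxcl9, Fcgr4, Gbp2, Gbp4 and Ly6a). Its median log2 ratio was 0.78 in the serine/glycine-free library and 0.37 in the control library. Cxcl9, which attracts CXCR3-bearing T cells, was at 1022 and 312 CPM and at 730 and 288 CPM, 3.28 times (3.03 to 3.56) and 2.53 times (2.35 to 2.73) as high. Thinned to 1000 UMIs, Cxcl9 was seen in 43.0% of class II-high and 16.9% of class II-low cells on the serine/glycine-free diet, in 26.0% and 15.5% on the control diet, and in at most 0.384% of Krt20-positive cells. The type I interferon list had medians of 0.19 and 0.35 over 16 measured genes, with Ifit2 and Rsad2, both antiviral proteins, past 1.5-fold in both libraries. Rsad2 was at a log2 ratio of -0.07 in the control library without cells with Flt3, Zbtb46 or Ly6c2.

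**Figure D2:**
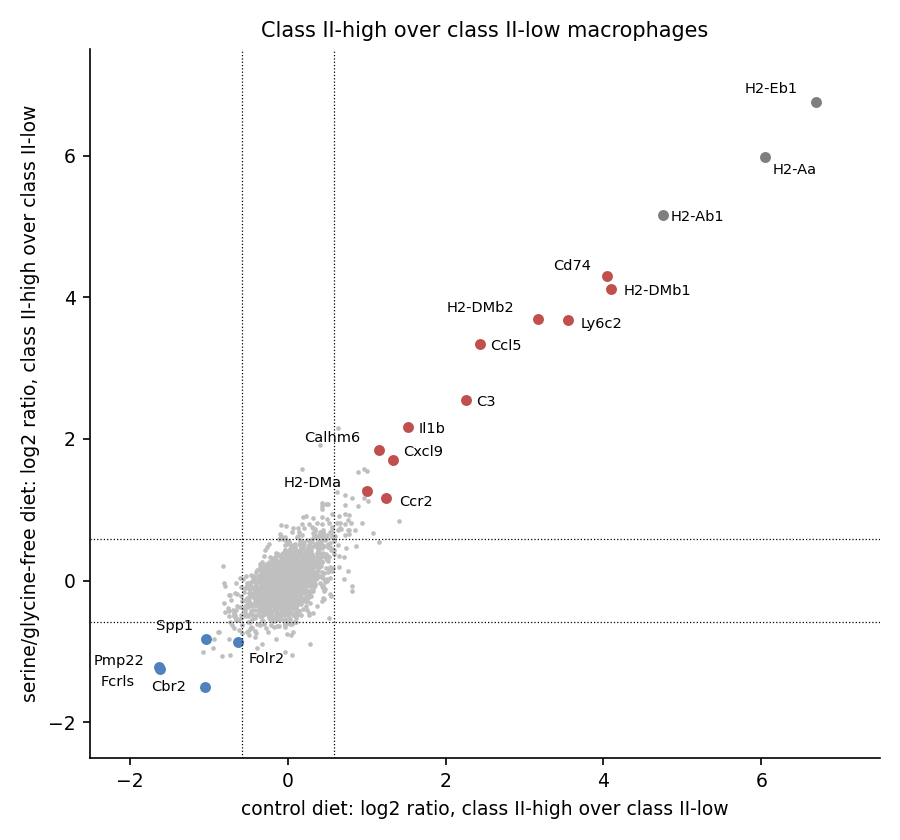
Log2 ratio of CPM + 5, class II-high over class II-low macrophages, in the serine/glycine-free library (vertical) and the control library (horizontal), 1 point per measured gene; dotted lines mark 1.5-fold, grey labelled points are genes of the membership rule, and 1 gene (Hbb-bs) lies outside the axes. Cd74, H2-DMb1, H2-DMb2, Ly6c2 and Ccl5 stand far above the cloud on both axes, and Cbr2, Pmp22, Fcrls and Spp1 below it.

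Genes of resident and scavenging macrophages were lower in class II-high cells. Of 12 measured genes of that list, 10 were below 0 in both libraries, none above, and 4 were past 1.5-fold in both (Cbr2, F13a1, Folr2 and Gas6), with medians of -0.47 and -0.74. Cbr2, a carbonyl reductase of resident macrophages, was at 136 CPM in class II-high and 393 CPM in class II-low cells of the serine/glycine-free library, and at 266 and 555 CPM in the control library. Folr2, a folate receptor, was 0.540 times (0.486 to 0.599) and 0.643 times (0.576 to 0.716) its class II-low level. Gas6, a bridging ligand for the uptake of dying cells, was at 53.6 and 112 CPM and at 71.6 and 157 CPM. F13a1, a coagulation transglutaminase, was at 161 and 338 CPM and at 220 and 369 CPM. Spp1, the matrix protein osteopontin, was at 638 and 1132 CPM and at 873 and 1785 CPM; thinned Krt20-positive cells held it in 90.6% and 94.0% of cells, and the part of free RNA in its macrophage level was not tested. Ccl2 and Ccl12, both ligands of Ccr2, were lower in class II-high cells, Ccl2 at 0.603 (0.583 to 0.623) and 0.541 (0.521 to 0.562) of its class II-low level, while Ccr2 itself was higher.

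Lipid handling and metabolism divided. Apoe, a lipid carrier, was at 5972 and 2849 CPM on the serine/glycine-free diet and 5223 and 3137 CPM on the control diet. Trem2, a lipid receptor that marks lipid-associated macrophages, was at log2 ratios of 0.00 and -0.32. Of 23 measured hypoxia and glycolysis genes, 20 were lower in class II-high cells of both libraries and none was higher, but Ankrd37 was the single one past 1.5-fold in both, and the medians were -0.27 and -0.38. Proliferation genes had medians of -0.50 in the serine/glycine-free library and -0.12 in the control library, with 10 of 19 below 0 in both and none past 1.5-fold in both. Of the costimulatory molecules, Cd86 was 1.78 times (1.56 to 2.04) and 1.60 times (1.41 to 1.82) as high in class II-high cells.

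Members were then divided into 4 equal bins by class II share, with lower edges of 0.0699%, 0.234%, 0.739% and 1.73%. Serine/glycine-free members filled the bins with 79, 109, 115 and 133 cells, and control members with 84, 54, 48 and 30. The top bin thus held 30.5% of serine/glycine-free members and 13.9% of control members. H2-DMb1 stood at 76.8, 190, 422 and 661 CPM from the lowest to the highest bin on the serine/glycine-free diet and at 79.7, 214, 423 and 743 CPM on the control diet. Its diet ratio by bin was 0.964, 0.886, 0.997 and 0.890, and all 4 intervals included 1. The other loading genes differed between the libraries within bins, in both directions. A bin is a range, so class II share was not equal within it. H2-Aa, a rule gene, itself had a diet ratio of 1.13 (1.07 to 1.19) in bin 3. The part of such leftover class II difference in the ratios below was not tested. Cd74 had diet ratios of 0.946, 1.12 (1.08 to 1.17), 1.19 (1.15 to 1.23) and 1.14 (1.10 to 1.17) from the lowest to the highest bin. H2-DMa had ratios of 0.769 (0.651 to 0.907) in bin 1, 0.803 (0.699 to 0.925) in bin 2 and 0.878 in bin 3, and the intervals of bin 3 and of bin 4 (0.873 to 1.18) included 1. H2-DMb2 had ratios of 0.763, 0.859, 0.871 and 0.832, of which only that of the highest bin had an interval without 1 (0.714 to 0.974).

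Bins differed in their other genes as well. Ccl5 was at 210, 156, 234 and 1817 CPM on the serine/glycine-free diet and 115, 52.5, 239 and 602 CPM on the control diet, and so was highest in the top bin of each library. Cxcl9 was at 586, 604, 1030 and 1772 CPM on the serine/glycine-free diet and at 561, 644, 800 and 1366 CPM on the control diet. Ly6c2 was at 43.6, 51.1, 41.0 and 230 CPM on the serine/glycine-free diet and 67.6, 197, 410 and 567 CPM on the control diet, higher in control cells of every bin. Cbr2 ran the other way, at 256, 173, 86.8 and 61.1 CPM and at 399, 248, 169 and 39.5 CPM. Spp1 was at 1781, 641, 316 and 149 CPM on the serine/glycine-free diet and 1065, 1173, 377 and 391 CPM on the control diet. Apoe differed in its course between the libraries, at 3795, 4227, 5834 and 9549 CPM on the serine/glycine-free diet against 4762, 6181, 4917 and 4996 CPM on the control diet.

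**Figure D3:**
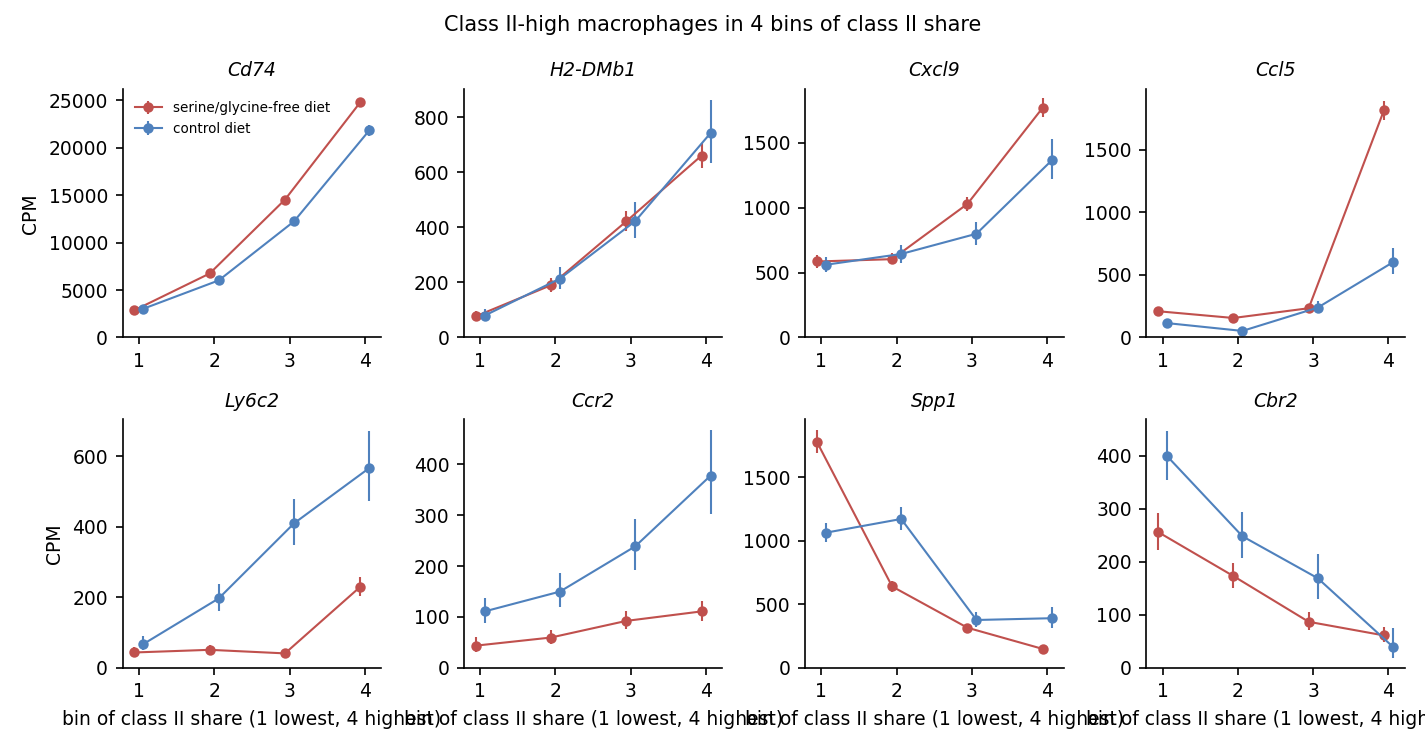
Level (CPM, linear axes from 0) of 8 genes in class II-high macrophages by bin of class II share, from 1 (lowest) to 4 (highest), for the serine/glycine-free diet (red) and the control diet (blue); bars are exact 95% Poisson intervals. Cd74 and H2-DMb1 climb in both libraries, Ccl5 is highest in the top bin, and Ly6c2 and Ccr2 lie lower on the serine/glycine-free diet in every bin.

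Across single members, the Spearman correlation with class II share was 0.91 over 436 serine/glycine-free cells and 0.88 over 216 control cells for Cd74, and 0.65 and 0.62 for H2-DMb1. It was 0.47 and 0.14 for Ctss, the protease that trims Cd74, 0.41 and 0.04 for Apoe, and 0.35 and 0.10 for Cxcl9. For Mrc1, the mannose receptor, it was -0.11 and -0.25, and for the C1q genes 0.09 and 0.05. Cells of a library share their depth and free RNA, and the correlation with a cell's total UMIs was -0.15 and -0.06.

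The diet comparison within members asked how class II-high macrophages of the serine/glycine-free library differed from those of the control library. Summed members held 4642545 UMIs in the serine/glycine-free library and 1885993 in the control library. Measured genes here had a mean of at least 50 CPM over the 2 libraries. They also had at least 30 UMIs in 1 of them, within the kind of macrophage compared. Of 2756 measured genes, 68 (2.47%) were at least 1.5-fold higher and 51 (1.85%) at least 1.5-fold lower on the serine/glycine-free diet, and the median gene was at a log2 ratio of -0.06. The same ratios in class II-low macrophages are given beside them; there, 48 of 2798 measured genes (1.72%) were at least 1.5-fold higher and 41 (1.47%) lower.

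Chemokines lay at both ends of the comparison. Of 22 measured genes of that list, 5 were past 1.5-fold upwards (Ccl4, Ccl5, Ccl8, Cxcl1 and Cxcl13) and 5 downwards (Ccl6, Ccl9, Ccr2, Cx3cr1 and Pf4), with a median log2 ratio of 0.07. Ccl5 was at 620 CPM in serine/glycine-free members and 181 CPM in control members, 3.42 times as high (3.06 to 3.84), and at 56.8 and 29.6 CPM in class II-low cells. It was seen in 34.4% of serine/glycine-free members and 15.7% of control members, and in 18.4% and 8.17% after thinning, against 0.480% and 0.685% of Krt20-positive cells. By bin its diet ratio was 1.83, 2.96, 0.981 and 3.02, so bin 3 showed no difference (0.774 to 1.25). Cxcl13, which draws B cells and follicular T cells, was at 142 and 15.4 CPM, but only 19 and 5 members had a UMI of it and the 5 highest cells held 85.8% and 100% of its UMIs; without the 2% of cells highest in it, its log2 ratio was 1.02 in place of 2.85. Cxcl1, a neutrophil attractant, was at 111 and 48.3 CPM (ratio 2.31, 1.84 to 2.92). Vcam1, an adhesion molecule, was at 163 and 42.4 CPM (3.85, 3.05 to 4.91) and higher in every bin; Krt20-positive cells also carry it, with a UMI in 13.3% and 10.0% of thinned cells against 10.9% and 2.88% of members.

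Interferon-beta was higher in serine/glycine-free members summed over all bins, while its response genes went both ways. Ifnb1, interferon-beta itself, was at 88.3 CPM in 54 serine/glycine-free members and 20.7 CPM in 7 control members (ratio 4.27, 3.07 to 6.09), and at 98.8 and 13.7 CPM in class II-low cells. The 5 highest control cells held 94.9% of the control UMIs, against 30.7% for the 5 highest serine/glycine-free cells. The Ifnb1 diet ratio was 0.849 (0.441 to 1.63) in the lowest bin of class II share, 3.63 (1.88 to 7.83) in bin 2 and 3.83 (1.90 to 9.02) in bin 4, and bin 3 held 138 and 0 UMIs. Its log2 ratio of 1.86 was 3.12 without the 2% of cells highest in it and 2.63 with the threshold at each library's own median. Of 19 measured type I interferon response genes, 4 were past 1.5-fold upwards (Ifih1, Ifit1, Oasl1 and Rsad2) and 1 downwards (Ifit3), with 9 above 0, 10 below 0 and a median of -0.04. Over all measured genes in members, 2.47% passed 1.5-fold upwards, 1.85% passed it downwards and the median was -0.06. Ifih1, a sensor of viral RNA, was at 249 and 129 CPM, while Ifit3 was at 64.0 and 105 CPM, a log2 ratio of -0.67 that became 0.02 without cells with Flt3, Zbtb46 or Ly6c2. Of 23 interferon-gamma response genes, 3 were past 1.5-fold upwards (Cd274, Fcgr4 and Ly6a) and none downwards, with 16 above 0 and a median of 0.21, against -0.16 in class II-low cells. Cxcl9 was at 1022 and 730 CPM (1.40, 1.32 to 1.49). By bin of class II share, from lowest to highest, the Cxcl9 ratio was 1.04, 0.939, 1.29 and 1.30.

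Cd274, which encodes the checkpoint ligand PD-L1, was at 156 CPM in serine/glycine-free members and 80.6 CPM in control members, 1.94 times as high (1.62 to 2.32). It was at 123 and 61.0 CPM in class II-low cells, a log2 ratio of 0.96 against 0.91 in members. Its diet ratio by bin was 1.41 (0.991 to 2.02), 1.84, 1.59 and 2.32. Thinned members had a UMI of it in 16.3% and 8.65% of cells, against 2.90% and 1.61% of Krt20-positive cells. No other of the 14 measured checkpoint and costimulation genes reached 1.5-fold; Cd40, a receptor for T cell help, was at 105 and 77.4 CPM, and Cd86 at 228 and 202 CPM. Among Fc and uptake receptors, Fcgr4, an activating IgG receptor, was at 462 and 263 CPM and Mertk, which binds dying cells, at 86.2 and 37.7 CPM, with a Mertk ratio by bin of 1.20, 1.89, 2.53 and 7.33.

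Hypoxia and glycolysis genes were higher on the serine/glycine-free diet as a group. Of 24 measured genes, 23 were above 0, 5 were past 1.5-fold (Bnip3, Hilpda, Ndrg1, Pfkp and Slc2a1) and none was past it downwards. The list median was 0.36 in members and 0.30 in class II-low cells. Over all measured genes in members, 2.47% passed 1.5-fold upwards and the median was -0.06. Ndrg1, a stress gene induced by low oxygen, was at 294 and 118 CPM (2.49, 2.16 to 2.88). Hilpda, a lipid droplet protein, was at 88.8 and 32.3 CPM. Slc2a1, the glucose transporter, was at 165 and 97.0 CPM, and Ldha, lactate dehydrogenase, at 1565 and 1280 CPM. Some single stress and iron genes were also higher: Mt2, a metallothionein, was at 153 and 59.9 CPM, Hmox1, haem oxygenase, at 359 and 202 CPM, and Cebpb at 835 and 510 CPM. Of 11 measured Atf4 stress genes, 10 were above 0 with a median of 0.17, and 2 passed 1.5-fold (Cebpb and Ppp1r15a). Of 9 measured inflammatory cytokine and NF-kB genes, 7 were above 0 and 3 passed 1.5-fold (Il18bp, Nfkbia and Tnfaip3), with a median of 0.36 against 0.40 in class II-low cells, while Il1b itself was at 453 and 545 CPM (0.831, 0.771 to 0.896).

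Few genes of serine and one-carbon metabolism passed the level filter in members. Of 28 listed, 6 were measured; 5 lay below 0 and 1 above, with a median of -0.29 against 0.08 in class II-low cells. Mat2a, which makes S-adenosylmethionine, was at 91.1 CPM in serine/glycine-free members and 142 CPM in control members (0.644, 0.551 to 0.753). Phgdh, the entry enzyme of serine synthesis, was under the level filter at 14.4 and 30.8 CPM in members (0.469, 0.325 to 0.679) and at 34.9 and 27.5 CPM in class II-low cells. It had UMIs in 49 serine/glycine-free and 24 control members, and the 5 highest cells held 28.4% and 55.2% of those UMIs. Psat1, the next enzyme, was at 32.1 and 52.0 CPM in members and 55.4 and 59.5 CPM in class II-low cells. Proliferation genes had 17 of 18 below 0 and 3 past 1.5-fold downwards (Mki67, Rrm2 and Top2a), with a median of -0.39 against -0.07 in class II-low cells. Of all measured genes in members, 1.85% passed 1.5-fold downwards, and their median was -0.06. Mki67 was at 69.4 and 130 CPM; after thinning it was seen in 6.86% and 9.13% of members, with overlapping intervals (4.64 to 9.70 and 5.59 to 13.9), and in 7.15% and 8.70% of Krt20-positive cells.

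The monocyte list was divided between the diets. Of its 5 measured genes, 2 were past 1.5-fold downwards in serine/glycine-free members (Ccr2 and Ly6c2) and 1 upwards (Ly6a), with 2 above 0, 3 below 0 and a median of -0.10 against 0.27 in class II-low cells. Ccr2 was at 78.8 CPM in serine/glycine-free members and 180 CPM in control members (0.437, 0.376 to 0.508), and was seen in 6.15% and 17.3% of thinned members. Its diet ratio was 0.393, 0.397, 0.386 and 0.293 from the lowest to the highest bin. Cx3cr1, a fractalkine receptor of patrolling monocytes and their progeny, was at 82.5 and 172 CPM with ratios by bin of 0.432, 0.458, 0.488 and 0.457. Ly6c2 was at 93.5 and 234 CPM (0.399, 0.349 to 0.456). With the threshold set at each library's own median instead, the log2 diet ratio was -0.57 for Ccr2 and -0.18 for Ly6c2, so both fell short of 1.5-fold. Ly6a, an interferon-induced surface protein also counted among monocyte markers, went the other way at 1173 and 623 CPM.

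**Figure D4:**
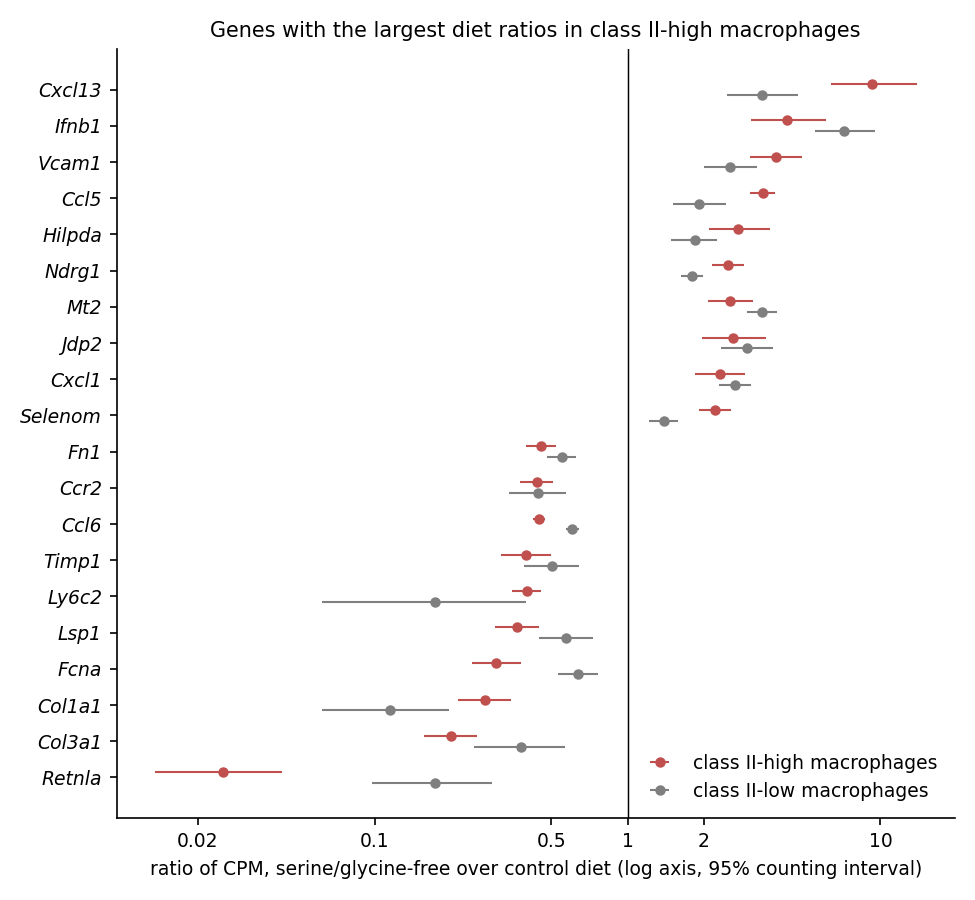
Ratio of CPM, serine/glycine-free over control diet (log axis), for the 10 highest and 10 lowest measured genes of class II-high macrophages (red), with the same ratio in class II-low macrophages (grey); bars are exact 95% counting intervals. All 20 genes lie on the same side of 1 in both kinds of macrophage.

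The lowest ratios came partly from few cells. Retnla, a secreted protein of alternatively activated macrophages, was at 3.02 CPM in serine/glycine-free members and 120 CPM in control members, with UMIs in 2 and 15 cells, and the highest 5 control cells held 85.9% of the control UMIs; its log2 ratio of -3.97 became -2.14 without the 2% of cells highest in it. Col3a1 and Col1a1, fibrillar collagens, were at 22.8 and 114 CPM and at 25.2 and 92.3 CPM, in 13 and 8 and in 15 and 8 members. The fibroblast list of 175 and 353 CPM includes these genes, and Col3a1 was at a log2 ratio of -0.12 without the 2% of cells highest in it. Without cells with Flt3, Zbtb46 or Ly6c2 the collagens turned, to 0.66 for Col3a1 and 0.24 for Col1a1. Other genes were spread over more cells. Ccl6, a chemokine of myeloid cells, was at 579 and 1302 CPM with UMIs in 262 and 140 members, and Lsp1, a leukocyte actin-binding protein, at 42.2 and 116 CPM in 75 and 84 members. Fn1, fibronectin, was at 99.7 and 220 CPM. Fcna, a ficolin of the lectin complement pathway, was at 30.8 and 102 CPM, with UMIs in 2.36% and 8.17% of thinned members and 1.78% and 3.16% of Krt20-positive cells. The part of free RNA in the Fcna values was not tested.

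Resident and scavenger genes were lower in serine/glycine-free members as a list, summed over all bins of class II share. Of 13 measured, 10 lay below 0, 3 above, and 4 were past 1.5-fold downwards (Cbr2, Fcna, Pltp and Retnla), with a median of -0.39 against -0.27 in class II-low cells. All measured genes in members had 1.85% past 1.5-fold downwards and a median of -0.06. Cbr2 was at 136 and 266 CPM, and Pltp, a phospholipid transfer protein, at 388 and 618 CPM. Summed over bins, Mrc1 differed little, at 410 and 460 CPM (0.891, 0.822 to 0.967), as did Folr2 at 168 and 217 CPM. From the lowest to the highest bin, the diet ratios of Mrc1 were 0.856, 0.834, 1.57 (1.26 to 1.96) and 1.27. Those of Folr2 were 0.687, 1.05, 0.737 and 3.15 (1.62 to 7.03), the last on 9 control UMIs. Those of Cbr2 were 0.642, 0.700, 0.514 and 1.55 (0.772 to 3.51). Retnla was below 1 in each bin, at 0.248, 0, 0 and 0.125. The last rested on 2 and 3 UMIs with an interval that included 1 (0.0105 to 1.09). Only 2 serine/glycine-free and 15 control members had a UMI of Retnla, so the bins hold few cells with it. Cd163, the haemoglobin scavenger receptor, was under the level filter at 6.68 and 19.1 CPM.

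Presentation genes lay mostly above 0, and Cd74 alone passed 1.5-fold, where 2.47% of all measured genes did. Of the 7 measured class II genes beyond the rule, 6 were above 0, with Cd74 at 12858 and 8032 CPM and a list median of 0.29 against -0.20 in class II-low cells. These sums compare members whose median class II share was 1.06% in the serine/glycine-free and 0.373% in the control library. Within bins of class II share, the Cd74 ratio ran from 0.946 to 1.19. Ratios of H2-DMb1 (0.886 to 0.997) and H2-DMb2 (0.763 to 0.871) were below 1 in every bin. Their intervals included 1 except for H2-DMb2 in the highest bin. H2-DMa was lower in serine/glycine-free members of the lowest 2 bins. Of 16 class I genes, 15 were above 0 and none passed 1.5-fold, with a median of 0.24 against 0.05 in class II-low cells. H2-T23, a class I molecule recognised by NK cell receptors, was at 541 and 398 CPM (1.36, 1.25 to 1.48), and Psmb9, an immunoproteasome subunit, at 505 and 394 CPM. Complement, lysosomal and lipid lists had medians of -0.15, 0.09 and 0.14. Arg1, an arginine-consuming enzyme, was at 357 and 274 CPM. By bin its diet ratio was 1.05, 2.43 (1.92 to 3.11), 1.76 (1.37 to 2.27) and 27.5, the last on 292 and 2 UMIs. Nos2, which makes nitric oxide from arginine, was under the level filter at 36.8 and 6.36 CPM (ratio 5.79, 3.23 to 11.4). Unthinned members had a UMI of it in 11.9% and 2.78% of cells, and thinned members in 2.60% and 1.92%.

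**Figure D5:**
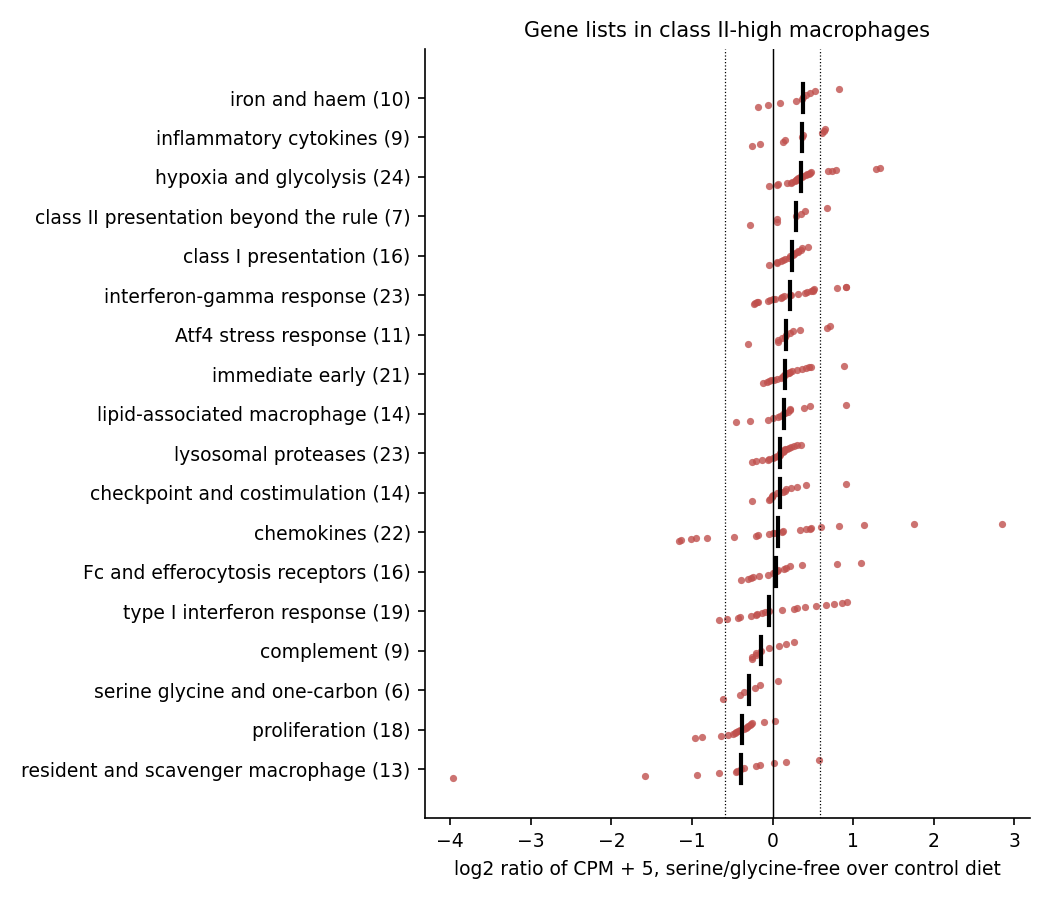
Log2 ratio of CPM + 5, serine/glycine-free over control diet, of each measured gene of 18 lists in class II-high macrophages (points), with the list median (bar) and the number of measured genes in brackets; dotted lines mark 1.5-fold. Medians run from -0.39 for the resident and proliferation lists to 0.38 for iron and haem genes, and most points of the hypoxia and glycolysis list lie right of 0.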

How the data were processed

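Single-cell RNA was measured in 1 subcutaneous tumour library per diet. The deposited matrices hold raw UMI counts per gene and cell barcode, made with Cell Ranger 7.1.0 per the file headers; version 2.2.2 and build mm10 stand in the submitters' processing notes. The extraction text of the labels speaks of human cardiac tissue, whereas the organism, source and design fields give mouse tumours and the gene symbols are those of mouse. The members and gene lists were chosen with earlier results of these data known. UMIs were summed per library and macrophage kind, T cell receptor and immunoglobulin genes were left out of totals, and levels are CPM, counts scaled to a common total. Log2 ratios are of CPM + 5, which understates the change of low genes. Genes named are the 10 highest and 10 lowest per comparison, up to 6 per list with the largest ratio, and a fixed set of immune and metabolic genes. Only barcodes called cells are in the matrices, so free RNA was judged from Krt20-positive cells. Doublets were scored with Scrublet in scanpy 1.11.5 and kept; other steps used Python 3.11.15, numpy 2.4.6, scipy 1.17.1 and pandas 2.3.3, seed 0. The sums, ratios and intervals were run on simulated independent Poisson counts. That is the model the intervals assume, so the run checks the arithmetic only. It does not cover UMIs that gather in few cells. Alternatives changed the pseudocount, level filter, fold, scaling, cell weight, depth, cell filters and thresholds; leaving out the 2% of cells highest in each gene, or cells with collagen UMIs, was added after the data were seen.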

Additional observations from a re-analysis of the deposited data

Results flagged for a closer look

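Several genes had diet ratios of opposite sign in class II-high and class II-low macrophages, as log2 ratios of the serine/glycine-free over the control diet. Apoe was at 0.19 in class II-high and -0.14 in class II-low cells, and the lysosomal protein Psap at 0.23 and -0.10. Ctss stood at 0.35 and -0.07, and Tap1, the peptide transporter of class I, at 0.20 and -0.37. Hpgds, a prostaglandin synthase, was at 0.29 and -0.24, and C1qa, a gene of the membership rule, at 0.22 and -0.06. All are under 1.5-fold, each rests on 1 library per diet, and the differences between the 2 kinds of macrophage were not tested.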

How the results depend on the processing

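The precision is limited by 1 library per diet and, for single genes, by the 216 control members. No paired analysis was possible because each diet had 1 library. The share of class II-high cells kept its direction in every alternative run, and its control value was 36.2% with cells thinned to 3000 UMIs. Of 53 named genes past 1.5-fold by diet, 49 to 53 kept their direction and 45 to 53 stayed past 1.5-fold. The level filters do not change a gene's ratio, so the value of 53 was fixed in advance for them. The count of genes higher by diet, 68, was 120 at a mean of 20 CPM, 41 at 100 CPM, 13 at 2-fold and 106 with the median within each library. The count lower, 51, was 159, 23 and 14 at the first 3 of these, 32 with ratios centred on the median gene, 95 with per-cell means and 124 after thinning to 3000 UMIs. For class II-high over class II-low, 46 genes higher became 70 at 20 CPM, 16 at 2-fold, 30 without cells with Flt3, Zbtb46 or Ly6c2, and 93 between 3 bins of macrophages, highest against lowest. The 19 lower became 12 at 100 CPM, 3 at 2-fold, 7 with the median within each library, 11 without those cells, 58 between those bins and 33 without the 2% of cells highest in each gene.

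Leaving out cells with Flt3, Zbtb46 or Ly6c2 turned the diet ratios of Col3a1 (0.66), Col1a1 (0.24), Ifit3 (0.02) and the fibroblast list (3.02), and the control class II ratios of Lsp1 (-0.01) and Rsad2 (-0.07); Ly6c2 became 0.00 by construction. Leaving out collagen cells set Col3a1 and Col1a1 to 0.00 by construction. Class II ratios of the control library also turned for Siglec1 (0.05, thinned), Arg1 (0.18, median within each library), the red cell list, which rests on 1 gene (6.59 with that median and 0.00 without the highest cells), and the fibroblast list (0.43 at 20 CPM, 0.41 without high doublet scores and 0.12 with the median within each library); for these the cause was not tested. Cxcl13 was at a log2 diet ratio of 1.02, Retnla at -2.14 and Timp1 at -0.79 without the 2% of cells highest in each gene.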

Other observations

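Iron and haem genes and immediate early genes had 1 member each past 1.5-fold upwards in class II-high macrophages, and none downwards, where 2.47% of all measured genes passed it upwards. Of 10 measured iron and haem genes, 8 were above 0 and Hmox1 passed 1.5-fold, with a median log2 ratio of 0.38 against 0.22 in class II-low cells. Fth1, the ferritin heavy chain, was at 14612 CPM in serine/glycine-free members and 10199 CPM in control members, and the transcription factor gene Nfe2l2 at 184 and 132 CPM. Of 21 immediate early genes, which tissue dissociation is known to induce, 17 were above 0 and Hspa1b alone passed 1.5-fold, a share near that over all genes, at 114 and 59.4 CPM in serine/glycine-free and control members, with a median of 0.16 against 0.10 in class II-low cells. Fabp5, a fatty acid carrier, was the single lipid gene of 14 past 1.5-fold, at 199 and 103 CPM in members and 314 and 114 CPM in class II-low cells.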
